A study of Mus musculus with 12 samples.

Results

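The genes described are those of fibroblast growth factor (FGF) signalling and of the negative feedback that ERK induces: the FGFs, their receptors and adaptors, the Sprouty and Spred inhibitors, the ERK phosphatases and the PEA3 group of ETS transcription factors. They were chosen by symbol alone, and 43 of the 24525 genes in the count tables matched. The libraries came from NSPCs (neural stem/progenitor cells) grown as neurospheres at passage 1 from E14.5 C57BL/6 mouse forebrain, 3 from wild-type and 3 from *Ythdf2-/-* cultures. In the mutants LoxP sites around the 5′ UTR and exon 1 of *Ythdf2*, which encodes a reader of m6A-marked mRNA, had been recombined by a ubiquitously active Cre, so the gene was lost in every cell type and not in NSPCs alone. Cultures of both genotypes received the same medium, with 20 ng/ml EGF and 10 ng/ml bFGF, the FGF2 protein. The values are read counts from the input fraction of an m6A-IP experiment, namely the share of sonicated mRNA fragments kept back when the rest went to the antibody. The 6 m6A-IP samples were not analysed here.

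FGFs bind receptor tyrosine kinases on the cell surface together with heparan sulphate, and the adaptor FRS2 links the activated receptor to the RAS-ERK cascade. ERK then releases or activates transcription factors, and among the genes that respond most readily are *Etv4*, *Etv5*, *Dusp6*, *Spry* and *Spred* genes, whose products in part shut the same cascade down. In neural progenitors FGF and EGF sustain self-renewal, and the level of these response genes is widely read as a record of how strongly the pathway is active. The transcriptional repressor Capicua keeps several of them silent until ERK removes it, and it recognises DNA that holds the letters TGAATG.

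The 250 bases before an annotated start are shown for a PEA3 gene and an ERK phosphatase whose counts ranged widely across the libraries. Only windows of these genes that held TGAATG are shown. Each run is 5′ to 3′ on the gene's own strand, and capitals mark TGAATG, or CATTCA where the letters lie on the other strand.
*Etv5*, second annotated start, chr16:22438369-22438618, minus strand: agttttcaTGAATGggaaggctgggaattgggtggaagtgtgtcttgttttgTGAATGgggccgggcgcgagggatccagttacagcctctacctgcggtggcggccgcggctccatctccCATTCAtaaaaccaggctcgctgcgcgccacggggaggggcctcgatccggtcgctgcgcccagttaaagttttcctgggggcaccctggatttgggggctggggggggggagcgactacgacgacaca
*Dusp6*, chr10:99262981-99263230, plus strand: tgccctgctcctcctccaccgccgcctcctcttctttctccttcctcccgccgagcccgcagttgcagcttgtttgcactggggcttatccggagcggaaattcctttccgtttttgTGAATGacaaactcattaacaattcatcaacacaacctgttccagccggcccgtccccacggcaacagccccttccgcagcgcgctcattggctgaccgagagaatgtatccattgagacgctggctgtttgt
The sequences are from RefSeq on GRCm38.p6, the assembly also called mm10.

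In the *Etv5* window the letters began 242, 198 and 129 bases before the start, and in the *Dusp6* window 133 bases before it. The other annotated start of *Etv5* held none. RefSeq windows of 250 bases before to 50 after a start matched 32 of the 43 genes, with 41 windows between them. TGAATG on either strand was in 7 of the 41 (17.1%) and in 12.7% of all 32851 windows, so its frequency over the whole gene group was near that of promoters at large. Windows with at least 3 copies, as in *Etv5*, made up 0.171% of all. The other windows with the letters belonged to *Dusp5*, *Spred3*, *Fgf7*, *Fgf21* and *Fgf23*. Those of *Spry1*, *Spry2*, *Spred1* and *Spred2* held none. Genes without a window, *Etv4*, *Spry4* and *Dusp4* among them, could not be searched. The ETS core GGAA was in 38 of the 41 windows and in 96.0% of all windows, and the AP-1 site TGANTCA was in 2 of them (*Fgf12* and *Fgf13*) and in 7.81% of all. No motif of the 3 contains another, though TGAATG and TGANTCA begin with the same letters. A match of letters is a description and says nothing of binding in these cells.

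Sequencing gave 11029827 to 13185778 counted reads per library, and TMM scaling factors lay between 0.988 and 1.03. The study describes its sequenced neurospheres as biological replicates, and the labels do not say which embryo each came from, so p-values measure the spread between these samples. *Ythdf2* was at 71.8, 73.3 and 91.3 CPM (counts scaled to a library of 1000000 reads) in the wild-type libraries and at 11.7, 14.6 and 11.1 CPM in the *Ythdf2-/-* libraries (log2 fold change -2.66 ± 0.18 SE, edgeR adjusted p = 0.0547), so the counts follow the labels. Wild-type replicate 3 stood apart from the other libraries. On the first principal component, which held 74.2% of the variance, it was at 91.0 and the others between -30.6 and -6.04. The counts of genes past the test with genotype as the only term are therefore also given without that library. Reads on 4 Y-linked genes were present in wild-type replicates 1 and 2 and in *Ythdf2-/-* replicate 3 and absent (sum of at most 3) in the other 3 libraries.

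No gene of the group passed the test between genotypes. Of the 43 genes, 27 passed the filter on low counts and were tested among 13112 genes with edgeR's quasi-likelihood test. At an adjusted p under 0.05 the test called 0 of the 27, against 0% of all genes tested, and at an unadjusted p under 0.05 it again gave 0 of the 27, against 3.63% of all (476 genes). The smallest adjusted p among the 27 was 0.999. Fold changes of *Ythdf2-/-* over wild type were above 0 on the log2 scale for 14 of the genes and below 0 for 13, from -0.57 to 0.50, with a median of 0.02. The median over all genes tested was -0.01. For 0 of the 27 genes were the genotypes separate with the *Ythdf2-/-* libraries on top (5.26% of all genes), and for 0 with the wild-type libraries on top (4.92% of all).

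The intervals show how much these libraries could resolve. The median standard error was 0.40 on the log2 scale for the 27 genes and 0.25 for all genes. For *Etv5* the 95% interval ran from -2.06 to 2.40, so that a change of several fold in either direction could not have been told from the spread. For *Fgf14* it ran from -0.77 to 0.38, the tightest range among the group's genes with *Frs2* (-0.63 to 0.55).

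**Figure D1:**
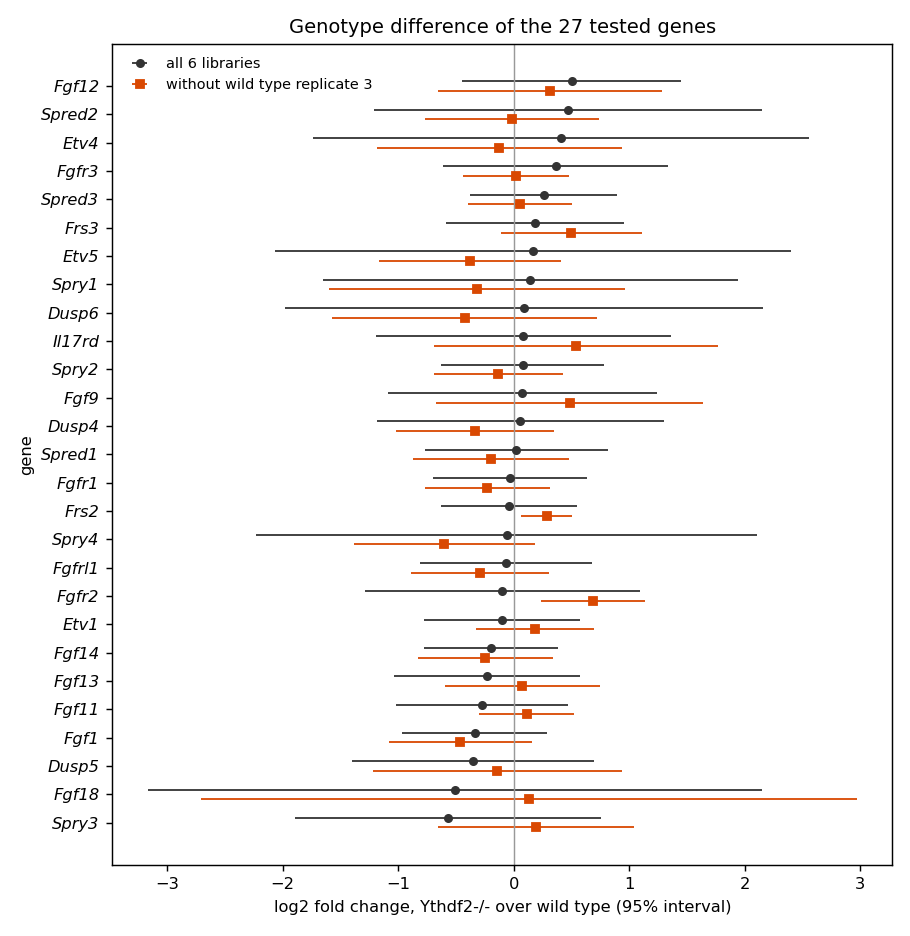
Log2 fold change of *Ythdf2-/-* over wild type for the 27 tested genes, with 95% intervals from edgeR's quasi-likelihood fit, using all 6 libraries (circles) or leaving out wild-type replicate 3 (squares). With all libraries every interval spans 0, and without that library those of *Fgfr2* (0.23 to 1.14) and *Frs2* (0.07 to 0.50) do not.

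Without wild-type replicate 3, 0 of the 27 genes passed an adjusted p of 0.05 (0.0151% of the 13283 genes then tested) and 2 of the 27 (7.41%) had an unadjusted p under 0.05, against 16.6% of all genes. These were *Fgfr2* (log2 fold change 0.68, adjusted p = 0.202) and *Frs2* (0.28, adjusted p = 0.234). All *Ythdf2-/-* libraries then lay above both remaining wild-type libraries for *Fgfr2*, *Frs2* and *Frs3*, which is 3 of 27 where 18.9% of all genes did so. They lay below them for *Spry4* alone, 1 of 27, where 20.0% of all genes did. In each of these counts the share of the group lay below that of all genes.

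The transcription factors of the PEA3 group are at the end of the cascade, and *Etv5* and *Etv4* had the widest ranges across the 6 libraries of the genes with reads in all of them. *Etv5*, an ETS factor that carries FGF responses in many embryonic tissues, was at 319, 319.8 and 17.7 CPM in wild-type replicates 1 to 3 and at 179, 190.2 and 369 CPM in *Ythdf2-/-* replicates 1 to 3. The highest library exceeded the lowest 20.8-fold, and the lowest was wild-type replicate 3. *Etv4* (also called Pea3, for which the group is named) followed the same course, with 93.4, 99.7 and 7.22 CPM in wild type and 76.2, 46.4 and 143 CPM in *Ythdf2-/-*, a 19.8-fold range. The genotype means of *Etv5* (± SD, n = 3) were 219 ± 174 CPM for wild type against 246 ± 106 CPM for *Ythdf2-/-* and differed by far less than either SD. Those of *Etv4* were 66.7 ± 51.6 and 88.5 ± 49.5 CPM. *Etv1*, the remaining member of the PEA3 group, ran the other way, with 124, 124 and 206 CPM in wild type and 116, 184 and 123 CPM in *Ythdf2-/-*. Its high libraries were wild-type replicate 3 and *Ythdf2-/-* replicate 2, those in which *Etv4* was lowest.

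*Dusp6* encodes the cytoplasmic phosphatase that removes the activating phosphates from ERK. It was at 267, 273 and 25.9 CPM in wild type and at 168, 98.3 and 336 CPM in *Ythdf2-/-*, a 13.0-fold range with a log2 fold change of 0.09 (95% interval -1.98 to 2.16). The 2 lowest libraries came from different genotypes. *Dusp4*, a nuclear phosphatase of ERK and other MAP kinases, was at 25.6, 21.7 and 6.67 CPM and at 21.4, 12.1 and 22.8 CPM, again lowest in wild-type replicate 3 and next lowest in *Ythdf2-/-* replicate 2. *Dusp5*, the nuclear ERK phosphatase, was far less abundant, with 4.19, 4.65 and 6.49 CPM in wild type and 2.47, 6.44 and 3.05 CPM in *Ythdf2-/-*, and its highest values were in the libraries where *Dusp4* was lowest. Each of the 3 phosphatase genes had overlapping genotypes.

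Sprouty proteins inhibit receptor tyrosine kinase signalling upstream of ERK. *Spry4* had 243, 230.0 and 14.7 CPM in wild type and 146, 97.6 and 224 CPM in *Ythdf2-/-*, a 16.5-fold range. *Spry1* had 114, 110.0 and 20.1 CPM and 79.1, 37.1 and 154 CPM, a 7.65-fold range. For both the lowest library was wild-type replicate 3 and the next was *Ythdf2-/-* replicate 2, while the highest differed. *Spry2* had 303, 316 and 183 CPM and 260.0, 216 and 372 CPM, so that the most abundant Sprouty gene kept nearly the order of libraries seen for *Spry1* within a range of 2.03-fold. *Spry3* was scarce, with 1.54, 2.44 and 6.21 CPM and 2.04, 2.07 and 2.73 CPM, and was highest where the others were lowest.

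Spred proteins hold back RAS by bringing the RAS-GTPase activating protein neurofibromin to the membrane. *Spred2* was at 39.0, 42.4 and 5.76 CPM in wild type and at 34.7, 27.96 and 58.4 CPM in *Ythdf2-/-*, a 10.1-fold range. *Spred1*, the more abundant gene, was at 285, 287 and 164 CPM and at 232, 173 and 343 CPM. *Spred3* was at 26.2, 22.1 and 14.53 CPM and at 21.4, 23.5 and 30.3 CPM. All 3 were lowest in wild-type replicate 3 and highest in *Ythdf2-/-* replicate 3, with ranges that decreased from *Spred2* to the others (2.09-fold for each). *Il17rd*, which encodes Sef, a membrane inhibitor of FGF signalling, did not share this course: it was at 14.3, 13.2 and 29.0 CPM and at 13.4, 34.9 and 11.4 CPM, high in wild-type replicate 3 and *Ythdf2-/-* replicate 2.

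**Figure D2:**
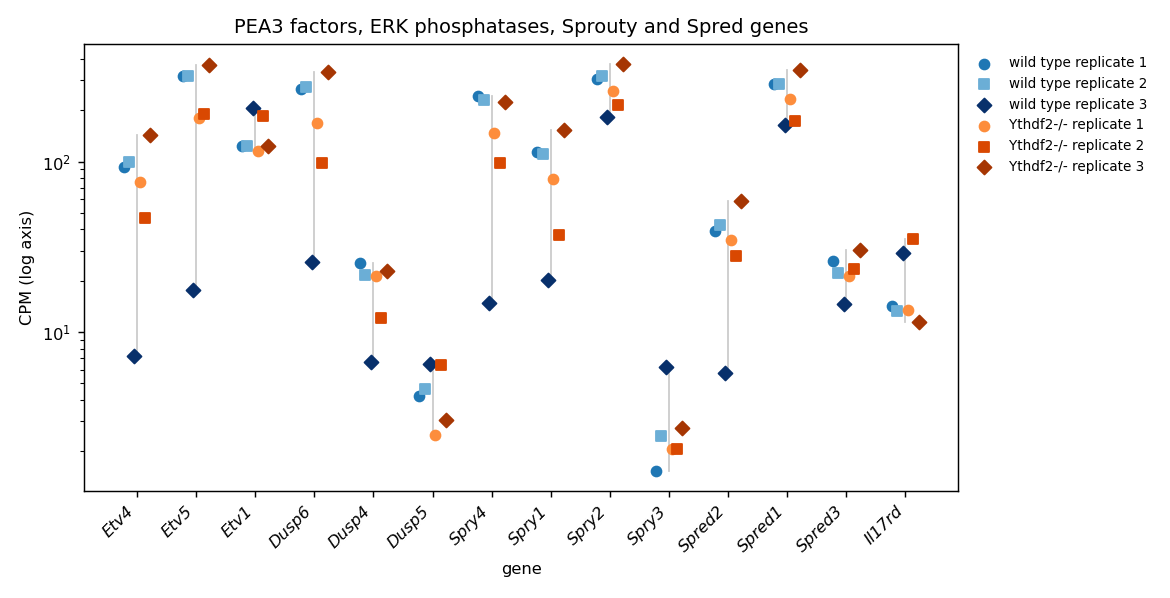
CPM on a log axis in each of the 6 libraries for the PEA3 factors, ERK phosphatases, Sprouty and Spred genes and *Il17rd*; blue points are wild-type and orange points *Ythdf2-/-* libraries, and each grey line joins the lowest and highest library. Wild-type replicate 3 (dark blue diamonds) is lowest for *Etv4*, *Etv5*, *Dusp6*, *Dusp4*, *Spry1*, *Spry2*, *Spry4* and the Spred genes, and highest for *Etv1*, *Dusp5* and *Spry3*.

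Over the 27 tested genes, the highest library was at least 4-fold above the lowest for 8 (29.6%), counting *Fgf18* with 0 reads in its lowest library, against 13.8% of all genes. Without wild-type replicate 3 the count was 2, *Spry1* (4.14-fold) and *Fgf18*, against 4.43% of all genes. Without it the range of *Etv5* was 2.06-fold, of *Etv4* 3.08-fold, of *Dusp6* 3.42-fold and of *Spry4* 2.48-fold. The widest ranges thus rested on that library, and ranges of 2.06- to 3.42-fold remained for these 4 genes.

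Several genes ordered the libraries alike. Wild-type replicate 3 was the lowest library for 14 of the 27 genes, against 34.5% of all genes, and the highest for 10, against 33.8% of all. *Ythdf2-/-* replicate 3 was the highest for 12 (16.3% of all genes), and *Ythdf2-/-* replicate 2 was the lowest of the other 5 libraries for 13 (28.3% of all genes). The full order, rising from wild-type replicate 3 through *Ythdf2-/-* replicates 2 and 1 to wild-type replicates 1 and 2 and then *Ythdf2-/-* replicate 3, was that of *Dusp6*, *Etv4*, *Fgfr1*, *Spred1*, *Spred2*, *Spry1* and *Spry2*, 7 of 27 against 2.39% of all genes. The order was picked after these values had been seen, so the count is a description.

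Receptors sit at the start of the cascade, and the 4 that were tested ranged from 1.80- to 3.41-fold across libraries. *Fgfr1*, which neural progenitors express together with *Fgfr2* and *Fgfr3*, was at 255, 274 and 164 CPM in wild type and at 208, 174 and 295 CPM in *Ythdf2-/-* (log2 fold change -0.03, 95% interval -0.70 to 0.63). *Fgfr3* was at 194, 239.7 and 79.7 CPM and at 232, 173 and 254 CPM, with wild-type replicate 3 lowest and the other 5 libraries within 1.47-fold. *Fgfr2* was at 36.4, 42.0 and 124 CPM and at 76.5, 61.5 and 51.1 CPM. In *Fgfr2* wild-type replicate 3 was the highest library, and all *Ythdf2-/-* libraries lay between it and the other wild-type libraries. The fold change of *Fgfr2* moved from -0.10 with all libraries to 0.68 without that one. *Fgfrl1*, which encodes a receptor without a kinase domain, was at 65.2, 60.7 and 35.9 CPM and at 44.3, 69.8 and 40.0 CPM. *Fgfr4* had at most 4 reads in any library and was not tested. Part of the exons of *Fgfr1* (125 bases) overlaps a gene on the opposite strand, *Gm16159*, so its count is uncertain where strand was not used.

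*Frs2*, the docking protein that joins FGF receptors to RAS, was at 67.9, 71.6 and 122 CPM in wild type and at 86.6, 82.0 and 86.2 CPM in *Ythdf2-/-*. The *Ythdf2-/-* libraries were tightly grouped (84.9 ± 2.51 CPM, SD, n = 3) between the low and the high wild-type values, as for *Fgfr2*. *Frs3*, a related adaptor, was at 4.19, 4.19 and 7.22 CPM and at 5.96, 6.95 and 4.82 CPM. It shares 162 exonic bases with *Frs3os* on the opposite strand and is uncertain for that reason.

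Ligand genes were mostly silent or scarce. Of the 15 secreted paracrine FGF genes, *Fgf1*, *Fgf9* and *Fgf18* passed the filter. *Fgf1*, which encodes acidic FGF and is able to bind all FGF receptors, was at 72.2, 81.5 and 57.7 CPM in wild type and at 56.2, 38.5 and 72.7 CPM in *Ythdf2-/-* (log2 fold change -0.34, 95% interval -0.96 to 0.29). *Fgf9* was at 0.684 to 1.55 CPM in wild type and at 0.740 to 1.53 CPM in *Ythdf2-/-*. *Fgf18* was at 0.428, 0.839 and 1.74 CPM and at 0.426, 1.63 and 0 CPM. *Fgf9* and *Fgf18* thus rest on few reads, and *Fgf1* was the only secreted FGF gene above 2 CPM in any library.

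*Fgf2*, the gene for the growth factor supplied in the medium, had 4, 2 and 3 reads in wild type and 2, 0 and 0 reads in *Ythdf2-/-*. Altogether, 16 of the 43 genes did not pass the filter. *Fgf3*, *Fgf4*, *Fgf6*, *Fgf15*, *Fgf16* and *Fgf20* had no read in any library, where a count of 0 over 73421673 reads allows up to 0.0409 CPM (3 reads, counting error only). The other 10 untested genes had at most 13 reads in a library, the highest being *Fgf17* in wild-type replicate 3. *Fgf7*, keratinocyte growth factor, had 0, 0 and 2 reads in wild type and 6, 3 and 5 reads in *Ythdf2-/-*, too few for the test. The endocrine FGF genes *Fgf15*, *Fgf21* and *Fgf23* had at most 8 reads.

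The 4 intracellular FGF homologous factors are not secreted and act mainly on sodium channels. All 4 were expressed. *Fgf11* was at 27.2, 29.9 and 54.9 CPM in wild type and at 36.6, 29.9 and 26.0 CPM in *Ythdf2-/-*. *Fgf12* was at 16.8, 20.4 and 11.9 CPM and at 19.4, 14.1 and 36.1 CPM, with the highest fitted change of the 27 genes (log2 0.50, 95% interval -0.45 to 1.45). *Fgf14* was at 11.7, 12.4 and 10.9 CPM and at 9.12, 8.28 and 13.2 CPM. *Fgf13*, at 3.13 to 6.03 CPM in wild type and 3.24 to 4.34 CPM in *Ythdf2-/-*, was the scarcest. In each of the 4 the genotypes overlapped.

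**Figure D3:**
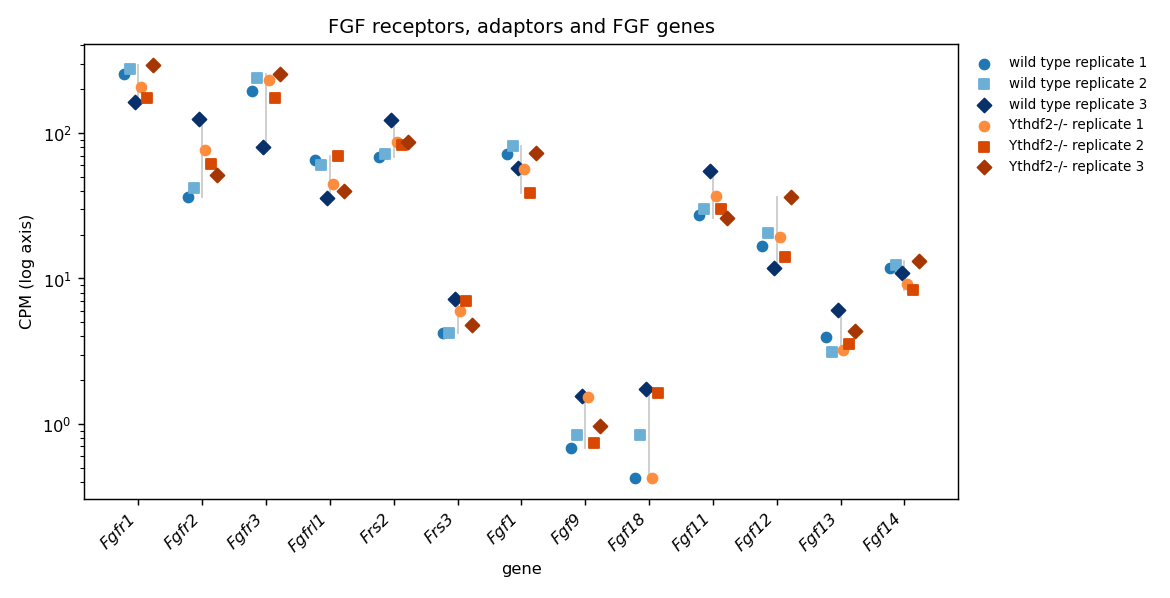
CPM on a log axis in each of the 6 libraries for FGF receptors, adaptors and those FGF genes that were tested; blue points are wild-type and orange points *Ythdf2-/-* libraries. *Fgfr2*, *Frs2* and *Fgf11* are highest in wild-type replicate 3 and *Fgfr1*, *Fgfr3* and *Fgfrl1* lowest; *Fgf18* had 0 CPM in *Ythdf2-/-* replicate 3, which a log axis cannot show.

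Levels of different genes were compared per length, as RPKM (CPM per kilobase of exon) averaged over the 6 libraries. *Spry2* was the most abundant of the 43 genes at 132 RPKM. *Dusp6* (69.6 RPKM) and *Etv5* (47.3 RPKM) came next, followed by *Fgfr1* (45.5) and *Fgfr3* (42.9 RPKM). *Spred1*, *Spry1*, *Spry4*, *Etv4* and *Etv1* lay between 33.2 and 34.9 RPKM, closer to each other than their spread over libraries. *Fgfr2* was at 12.2 RPKM, *Fgf1* at 16.2 RPKM, *Frs2* at 15.1 RPKM and *Fgf11* at 9.77 RPKM. *Spry3* had no exon length on a placed chromosome and was left out. These averages include wild-type replicate 3: in *Etv5* single libraries ranged from 3.60 to 75.0 RPKM and in *Spry2* from 87.8 to 178 RPKM.

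Cell type markers also set wild-type replicate 3 apart. Markers of neural stem and progenitor cells were abundant in all 6, with *Fabp7*, *Vim* and *Slc1a3* the highest, and their 12 genes summed to 8111 to 9311 CPM in 5 libraries and to 5744 CPM in wild-type replicate 3. That lower sum was carried by abundant genes such as *Fabp7*, at 759 CPM there against 1636 to 2407 CPM elsewhere, while 8 of the 12 markers were highest in that library and 3 were lowest. The 12 oligodendrocyte lineage markers summed to 5243 CPM in that library and to 1923 to 2386 CPM in the others. *Mbp*, a gene of myelin, was at 572 CPM there, against at most 8.84 CPM elsewhere. Of the 10 tested markers of this lineage, 7 were highest in that library and 3 lowest. The 10 astrocyte markers summed to 12487 CPM there and to 3134 to 8243 CPM elsewhere, and the 10 neuron markers to 2115 CPM there and to 1272 to 1479 CPM elsewhere. Of the tested genes, 5 of the 10 astrocyte markers were highest in that library and 0 lowest, and 6 of the 9 neuron markers were highest and 1 lowest. *Gfap*, the filament gene of astrocytes, was at 436, 624 and 3041 CPM in wild type and at 127, 87.7 and 5.55 CPM in *Ythdf2-/-*, and *Dcx*, of immature neurons, was at 314 CPM in wild-type replicate 3 against at most 13.1 CPM elsewhere. The 8 mesenchymal markers summed to 13.9 to 41.8 CPM, highest in wild-type replicate 3, where 1 of the 3 tested markers was highest and 2 were lowest. The 8 microglia and macrophage markers summed to 3.49 to 6.40 CPM, with *C1qa* and *Ptprc* at 0 in all libraries, and the 6 endothelial markers to 1.01 to 3.51 CPM, with *Cldn5* at 0. In bulk samples, fewer cells of a type and less RNA per cell cannot be told apart, and the part of cell composition in the values of the FGF genes was not tested.

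**Figure D4:**
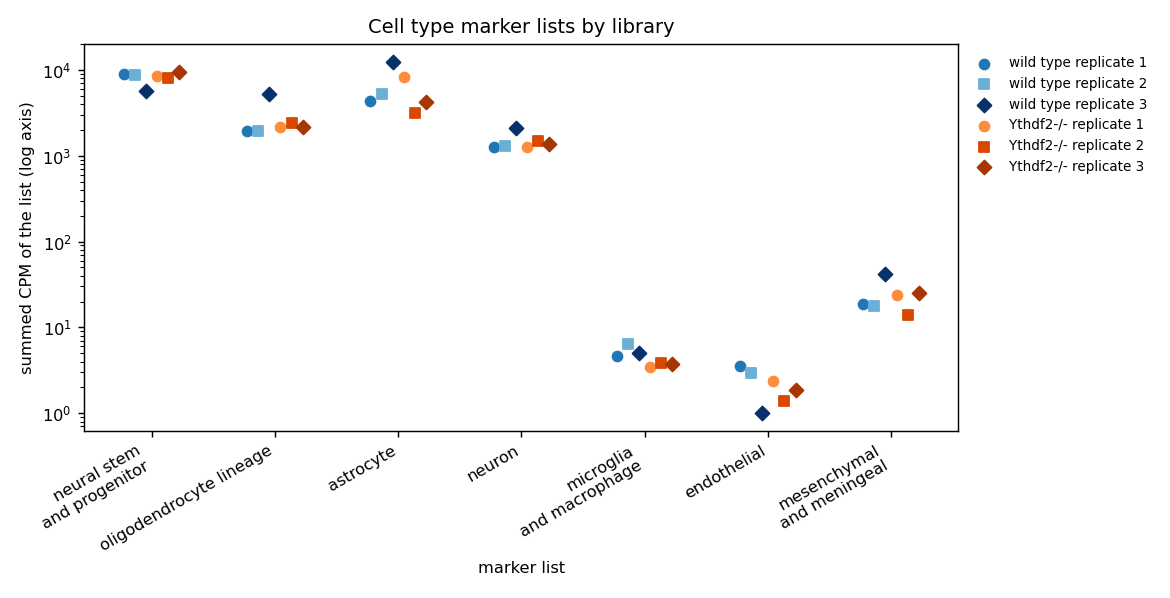
Summed CPM, on a log axis, of 7 cell type marker lists in each library; blue points are wild-type and orange points *Ythdf2-/-* libraries. Wild-type replicate 3 (dark blue diamonds) has the highest sums for oligodendrocyte lineage (5243 CPM), astrocyte (12487 CPM) and neuron markers (2115 CPM) and the lowest for neural stem and progenitor markers (5744 CPM), although 8 of the 12 progenitor markers were highest in it.

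Of the marker lists, 0 genes passed an adjusted p of 0.05 between genotypes with all libraries. At an unadjusted p under 0.05, *Prom1* was lower in *Ythdf2-/-* among the progenitor markers, *Cspg4* was higher and *Sox10* and *Mbp* were among those lower in the 10 tested of the oligodendrocyte lineage, *Gfap* and *Clu* were lower among the astrocyte markers, and *Dcx* and *Stmn2* among the 9 tested neuron markers. None of the 6 tested genes for microglia, endothelium and mesenchyme did. The share of all genes at that threshold was 3.63%. Without wild-type replicate 3 most of these differences were no longer seen: among the oligodendrocyte lineage markers *Cspg4* and *Lhfpl3* were higher and 0 lower, and among the neuron markers *Stmn2* alone was lower, where 16.6% of all genes had an unadjusted p under 0.05. The median log2 fold change turned from -0.70 to 0.12 for the oligodendrocyte lineage markers and from -0.73 to 0.16 for the neuron markers. *Sox10* moved from -4.27 to -0.44 and *Dcx* from -3.51 to -0.23, while *Gfap* and *Clu* stayed lower at an unadjusted p under 0.05. The 10 astrocyte markers went from 4 higher and 6 lower (median -0.07) to 6 higher and 4 lower (median 0.18). Among the progenitor markers *Prom1* was again lower, and *Sox2* and *Msi1* were higher.

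The presence of Y-linked reads moved with the values of part of the FGF genes. For 12 of the 27 genes (44.4%) all libraries with such reads lay above all without, against 12.7% of all genes, and these were *Etv4*, *Etv5*, *Dusp4*, *Dusp6*, *Spry1*, *Spry2*, *Spry4*, *Spred1*, *Spred2*, *Fgfr1*, *Fgf1* and *Fgf14*. *Fgfr2* and *Frs3* lay below, 2 of 27 against 14.0% of all genes. Each side of this division holds both genotypes, but 1 of them by a single library: *Ythdf2-/-* replicate 3 on the side with such reads, and wild-type replicate 3, which stands apart, on the side without. The counts within each side therefore rest on these 2 libraries and restate in part the order of libraries described above. Among the libraries with Y-linked reads, *Ythdf2-/-* replicate 3 lay above both wild-type libraries for 18 of the 27 genes (40.8% of all genes). Among those without, both *Ythdf2-/-* libraries lay above wild-type replicate 3 for 14 (41.5% of all genes). Both held for 11, against 15.7% of all genes: *Etv4*, *Etv5*, *Dusp6*, *Spry1*, *Spry2*, *Spred1*, *Spred2*, *Spred3*, *Fgfr1*, *Fgfr3* and *Fgf12*.

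With the presence of Y-linked reads as a term in edgeR's fit, 0 of the 27 genes passed an adjusted p of 0.05 (0.0991% of all genes), and 6 of the 27 had an unadjusted p under 0.05, against 11.0% of all genes. All 6 had positive fold changes. They were *Etv4* (log2 1.74, adjusted p = 0.431), *Spred2* (1.42, adjusted p = 0.374), *Spry1* (0.98, adjusted p = 0.455), *Fgfr3* (0.79, adjusted p = 0.450), *Fgf12* (0.73, adjusted p = 0.336) and *Spred3* (0.47, adjusted p = 0.389). In that fit each side of the division holds 3 libraries, and on the side without Y-linked reads the wild type is replicate 3 alone. The labels do not give the sex of the embryos.

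No gene in the rest of the cascade passed the test, nor did any other of the 13112 genes tested. Of the 22 genes of the RAS-ERK core, all were tested. In *Ythdf2-/-*, 8 had higher and 14 lower fitted values (10 and 12 without wild-type replicate 3). The median log2 fold change with all libraries was -0.04. An adjusted p under 0.05 was reached by 0 of the 22, against 0% of all genes, and an unadjusted p under 0.05 by 0, against 3.63% of all. *Nras* was among the most abundant. Summed over the 22 genes, the libraries lay between 2222 and 2496 CPM, and wild-type replicate 3 was the highest. Without wild-type replicate 3, *Sos1* and *Plcg1* were higher and *Map2k1* and *Rps6ka1* lower at an unadjusted p under 0.05, 4 of 22 where 16.6% of all genes passed that threshold. *Rps6ka1*, a kinase that ERK activates, was at 51.6, 52.4 and 24.4 CPM and at 30.6, 24.3 and 22.9 CPM.

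Of 9 RAS-GTPase activating proteins 7 were tested and 0 passed either threshold, with *Rasa3*, *Rasa1* and *Nf1* (neurofibromin) the most abundant. For this list and those that follow, 0% of all genes passed the adjusted and 3.63% the unadjusted threshold with all libraries. With wild-type replicate 3 left out, *Nf1* was higher at an unadjusted p under 0.05 (log2 fold change 0.36), 1 of 7 against 16.6% of all genes. Of 8 other MAP kinase phosphatases, led by *Dusp1*, *Dusp16* and *Dusp10*, 6 were tested, and 4 were higher and 2 lower (5 and 1 without wild-type replicate 3) with 0 past either threshold. The 14 enzymes of heparan sulphate synthesis and editing had 12 tested members, 10 with higher and 2 with lower fitted values (median log2 fold change 0.23), and again 0 passed. Leaving out wild-type replicate 3 gave 8 higher and 4 lower, with a median of 0.05. *Sulf2*, *Extl3* and *Ext1* were the most abundant of these.

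Among 17 FGF co-receptors, Flrt proteins and heparan sulphate core proteins, 14 were tested, 9 higher and 5 lower. Their median log2 fold change was 0.47, against -0.01 for all genes. The paper had already named *Flrt2* and *Flrt3* as up-regulated in these cultures, so the list was not independent of these data. With wild-type replicate 3 left out, 12 were higher and 2 lower, with a median of 0.36 against 0.01 for all genes. None passed an adjusted p of 0.05, and 3 had an unadjusted p under 0.05, where 3.63% of all genes did. Without wild-type replicate 3 there were again 3, against 16.6% of all genes: *Flrt2* and *Flrt3* were higher, *Sdc1* was lower (log2 fold change -0.77), and *Gpc6* had an unadjusted p of 0.0747. *Flrt2* was at 38.0, 35.1 and 23.5 CPM in wild type and at 59.0, 93.8 and 51.8 CPM in *Ythdf2-/-*, with a log2 fold change of 1.08 ± 0.29 (SE) and an adjusted p of 0.999. *Flrt3*, which encodes a membrane protein that binds FGF receptors, was at 15.2, 13.1 and 12.1 CPM and at 19.0, 25.8 and 19.1 CPM. *Gpc6*, a glypican, was at 32.7, 34.5 and 25.8 CPM and at 43.3, 36.5 and 61.2 CPM. In all 3 genes every *Ythdf2-/-* library was above every wild-type library, as for 5.26% of all genes. They were picked by their unadjusted p, which favours such a separation, so this is a description. The abundant core proteins *Sdc3*, *Gpc1* and *Sdc4* had log2 fold changes of 0.58, 0.52 and -0.21.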

How the data were processed

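The authors deposited, for each of the 6 input libraries, raw counts of reads per gene with no normalization. Per the paper's methods, reads from a strand-specific kit were aligned to mm10 with TopHat. The submitters' processing notes also name Bowtie2 2.2.9, RSEM 1.2.15 and featureCounts, and the strand setting is not given in the sources used here. Separate deposited tables hold expected counts, TPM and FPKM. The expected counts summed to 1.97% to 2.4% of the raw counts, so these tables served only as an alternative (FPKM), and the deposited TPM values were not tested.

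Groups came from the sample labels. Counts were scaled by TMM to CPM, filtered with filterByExpr and tested in edgeR 4.0.16 (glmQLFit with the robust option, glmQLFTest, genotype as the only term, Benjamini-Hochberg adjustment over 13112 genes; R 4.3.3). RPKM used the union exon length from RefSeq GRCm38.p6, at hand for 42 of the 43 genes. Alternatives were other normalizations, filters, DESeq2 1.42.0, limma 3.58.1, added terms and leaving out each library.

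The genes and lists were chosen with earlier results of these data known. Every gene of the group that passed the filter was named with its values, as were *Ythdf2* and, from other lists, the 3 most abundant genes and those at an unadjusted p under 0.05. The untested FGF genes named, the markers at 0, and the markers given per library were chosen after their values were seen. *Actb*, a check of loading, was at 1166 to 1792 CPM. Some members of the pathway and marker lists are not reported here by name.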

Additional observations from a re-analysis of the deposited data

How the results depend on the processing

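In 17 alternatives none of the FGF, receptor or feedback genes passed an adjusted p of 0.05. The smallest adjusted p was 0.0505, for *Fgfr2* in limma-voom with sample quality weights, which gave wild-type replicate 3 a weight of 0.0901. Over all genes, the count of calls was 0 in the fit reported, 1 with DESeq2 size factors, 1 with no filter, 1 with at least 10 counts in every library, 31 with DESeq2, 632 with quality weights, 13 with Y-linked reads as a term, 2 with limma on log2(FPKM + 1), and 0 to 2 when each library was left out. Genes of the group at an unadjusted p under 0.05 numbered 1 of 37 with no filter (*Fgf7*; 3.35% of all genes), 6 of 27 with quality weights (29.9%), 6 of 27 with Y-linked reads as a term (11.0%), 2 of 19 with FPKM (3.62%), and 0 to 2 when each library was left out: 2 of 27 without wild-type replicate 3 (16.6%) and 1 of 26 without *Ythdf2-/-* replicate 2 (4.14%). Those whose genotypes did not overlap numbered 1 with no filter (9.29% of all genes) and 0 to 4 when each library was left out. They were 4 without wild-type replicate 3 (38.9%), 2 without *Ythdf2-/-* replicate 2 (22.1%) and 2 without *Ythdf2-/-* replicate 3 (16.0%). The median log2 fold change of the group lay between -0.17 and 0.18 and changed sign between alternatives.

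Of 446 recomputed fold changes of single genes, 75 changed sign, none of them past an adjusted p of 0.05. The log2 values that did so were, with quality weights, *Dusp4* -0.17, *Dusp6* -0.51, *Etv4* -0.19, *Etv5* -0.55, *Fgf11* 0.20, *Fgf13* 0.012, *Fgfr2* 0.77, *Frs2* 0.28, *Spred1* -0.22, *Spred2* -0.085, *Spred3* -0.016, *Spry1* -0.39, *Spry2* -0.17 and *Spry3* 0.080. With FPKM they were *Dusp6* -0.16, *Etv1* 0.88, *Etv4* -0.88, *Fgf11* 0.073, *Fgf9* -0.38 and *Fgfr1* 0.84, on the log2(value + 1) scale and from few reads. With Y-linked reads as a term they were *Fgf9* -0.093, *Fgfr1* 0.19, *Fgfrl1* 0.0050, *Il17rd* -0.26 and *Spry4* 1.44, and with limma-voom *Fgfr2* 0.12, *Frs2* 0.015 and *Spry4* 0.65. When each library was left out in turn, 20 genes changed sign in some fit. Their ranges were *Dusp4* -0.34 to 0.40, *Dusp6* -0.50 to 0.46, *Etv1* -0.32 to 0.18, *Etv4* -0.13 to 0.81, *Etv5* -0.38 to 0.55, *Fgf11* -0.46 to 0.11, *Fgf13* -0.42 to 0.074, *Fgf18* -0.87 to 0.13, *Fgf9* -0.25 to 0.48, *Fgfr1* -0.27 to 0.13, *Fgfr2* -0.40 to 0.68, *Fgfrl1* -0.35 to 0.089, *Frs2* -0.19 to 0.28, *Il17rd* -0.59 to 0.54, *Spred1* -0.28 to 0.24, *Spred2* -0.014 to 0.85, *Spry1* -0.49 to 0.52, *Spry2* -0.17 to 0.25, *Spry3* -0.91 to 0.19 and *Spry4* -0.60 to 0.35. The causes were not tested.

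The replicate numbers did not pair the samples. Deviations of same-numbered libraries correlated at -0.248, -0.244 and -0.394, and 0 of the libraries correlated best with their own number. With the replicate block 0 genes were called, 0 genes of the group among them, and the sign changed for *Fgfr2* (0.13), *Frs2* (0.014), *Il17rd* (-0.014) and *Spry4* (0.32).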
